A study of Mus musculus with 6 samples.

Results

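The 10 genes described here encode transcription factors of the secretory lineage of the intestinal epithelium: Atoh1, Gfi1, Spdef, Bhlha15, Creb3l4, Xbp1, Neurog3, Insm1, Sox4 and Sox9. They were taken by gene symbol from a deposited table of 18448 genes, each symbol matched 1 gene, and all 10 were among the 14544 genes that passed the filter on low counts. The data are poly(A) RNA sequencing of mouse (C57BL/6) jejunal organoids, which are epithelial cultures grown from the small intestine. All 6 libraries came from organoids with floxed Hnf4a alleles and a tamoxifen-inducible Cre recombinase, CreERT2, driven by the Villin promoter, which is active in the intestinal epithelium. In 3 libraries the organoids had been given 0.5 µM 4-hydroxytamoxifen (4OHT), the active form of tamoxifen, for 24 h, and in the other 3 they had been given the vehicle DMSO. Both groups were then split, grown with 200 ng/mL recombinant Wnt3A and harvested at day 2. Recombinant Wnt3A was thus common to all 6 libraries. No group without Cre was among the samples used here, so loss of Hnf4a and other effects of 4OHT or of active Cre cannot be told apart.

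In the intestinal crypt, a progenitor that escapes Notch signalling switches on Atoh1 and enters the secretory lineage, whose mature cells are goblet, Paneth and enteroendocrine cells. Gfi1, Spdef, Bhlha15, Creb3l4 and Xbp1 act after that choice, in cells that fill with secretory granules or carry a heavy load of protein folding, while Neurog3, Insm1 and Sox4 act in the endocrine branch. Sox9 is a Wnt-responsive factor of the crypt base that is needed for Paneth cells. The comparison asked whether the transcripts of these factors differed between organoids given 4OHT to deplete Hnf4a and vehicle-treated organoids, all supplied with Wnt3A.

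Hnf4a, the nuclear receptor gene targeted in the design, was at 435.9, 424 and 482 CPM (counts scaled to the size of the library) in 4OHT replicates 1 to 3, against 839.8, 846 and 1021 CPM in the DMSO replicates. The groups did not overlap, and the log2 fold change (4OHT over DMSO) was -1.01 (standard error, SE, 0.10, edgeR adjusted p = 0.0124). This call was kept without DMSO replicate 3 (edgeR adjusted p = 0.00543) and lost without DMSO replicate 1 (0.0572) or 2 (0.0606) and without 4OHT replicate 1 (0.0951), 2 (0.0629) or 3 (0.0621). Across these fits the log2 fold change of Hnf4a stayed between -1.07 and -0.92, while edgeR calls over all genes ranged from 4 to 340. With all 6 libraries edgeR called 132 genes. DESeq2 (adjusted p = 1.1e-16), limma-voom (0.0126) and edgeR with the replicate number as a block (0.00308) also called Hnf4a. Library totals ran from 31537100 to 40276242 counts, and the 10 factors had 161 to 10377 counts per library. DMSO replicate 3 stood apart within its group: a chi-square of the counts over genes, divided by its degrees of freedom, was 69.5 and 63.7 against DMSO replicates 1 and 2, beside 8.52 between those replicates. Among 4OHT libraries it ran from 17.0 to 34.8. Epithelial genes were abundant in every library, with Epcam, an epithelial adhesion gene, at 950.0 ± 52.8 CPM after 4OHT and 1143 ± 36.2 CPM in DMSO (standard deviation, SD, n = 3 each). The log2 fold change of Epcam was -0.27 (edgeR adjusted p = 0.144, DESeq2 adjusted p = 0.0138). Over the 7 epithelial genes listed, Epcam among them, the median was 0.012 and edgeR called 0.

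For none of the 10 factors did the difference between 4OHT and DMSO organoids pass the test against the spread between libraries. With edgeR's quasi-likelihood test, 0 of 10 had an adjusted p under 0.05, beside 0.908% of all tested genes, and the adjusted p of the 10 ran from 0.38 to 0.949. At an unadjusted edgeR p under 0.05 the count was also 0 of 10, beside 15.0% of all tested genes. DESeq2 called 0 of 10 (5.56% of all genes) and limma-voom called 0 of 10 (0.846%). With the replicate number as a block in the edgeR model, 0 of 10 had an adjusted p under 0.05 (6.99% of all genes), with a lowest value of 0.0853, and 5 of 10 had an unadjusted p under 0.05 (25.3% of all genes). In the authors' deposited table, 0 of the 10 had an adjusted p under 0.05, the lowest being 0.93 from DESeq and 0.62 from edgeR.

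The size of the differences was bounded as follows. The log2 fold change was positive for 4 factors and negative for 6, with a median of -0.07, beside -0.0041 for all tested genes. Its median size without regard to sign was 0.20 for the factors and 0.119 for all tested genes. All 10 intervals of 95% lay within -1 and 1 on the log2 scale, that is within a 2-fold change in either direction, as did those of 81.9% of all tested genes. The lowest bound was -0.77, for Sox4, and the highest was 0.80, for Spdef. These intervals are from the fit without the block, and with it they were -0.35 to -0.06 for Sox4 and 0.11 to 0.57 for Spdef. Both kinds of interval leave room for changes smaller than 2-fold.

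**Figure D1:**
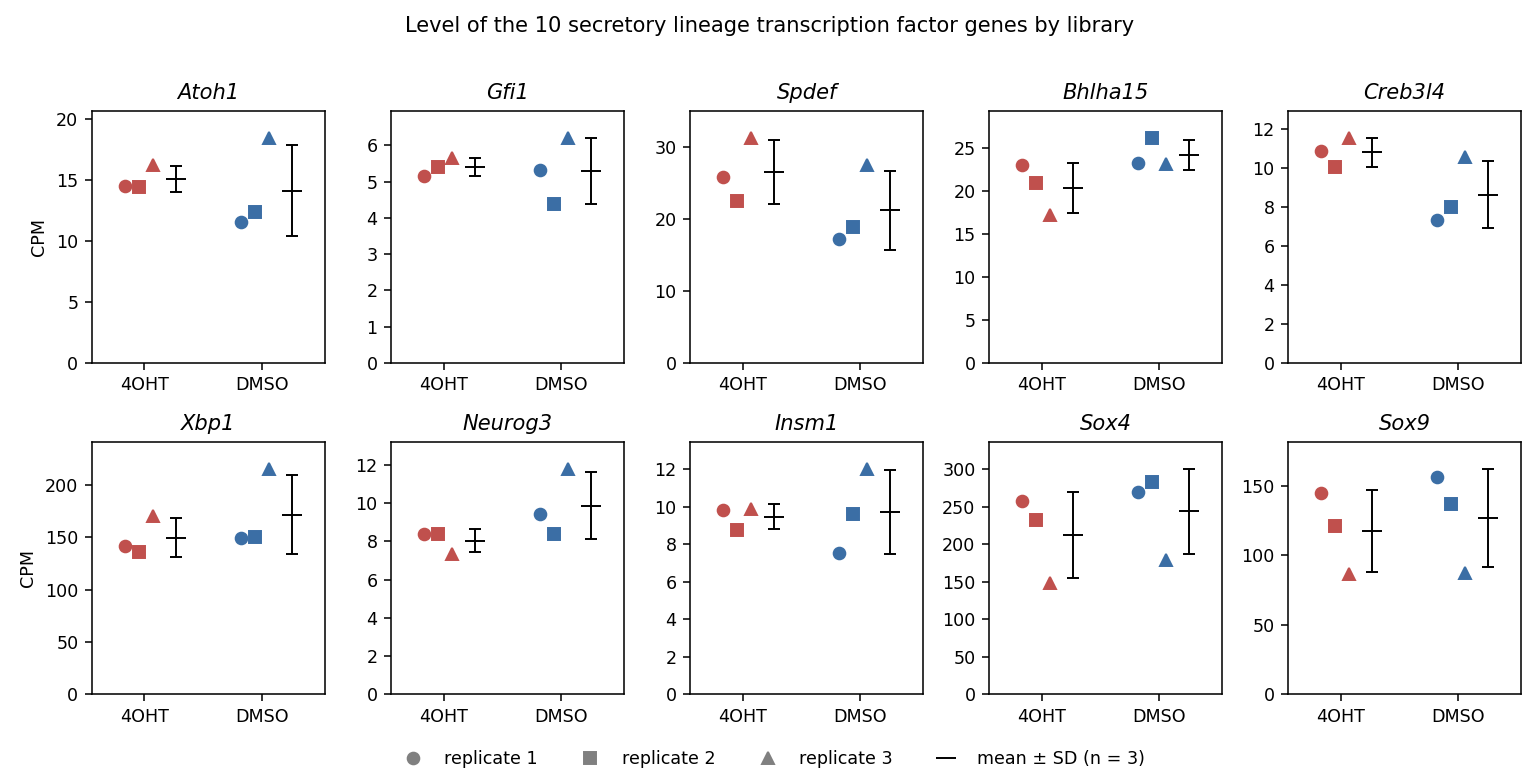
Level of each of the 10 factors (CPM, linear axis from 0) in every library, with 4OHT in red and DMSO in blue, replicates 1, 2 and 3 as circle, square and triangle, and bars for the mean ± SD (n = 3). The groups overlap for 9 factors, and replicate 3 is the lowest library of both groups for Bhlha15, Sox4 and Sox9 and the highest of both groups for Atoh1, Gfi1, Spdef, Creb3l4, Xbp1 and Insm1.

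**Figure D2:**
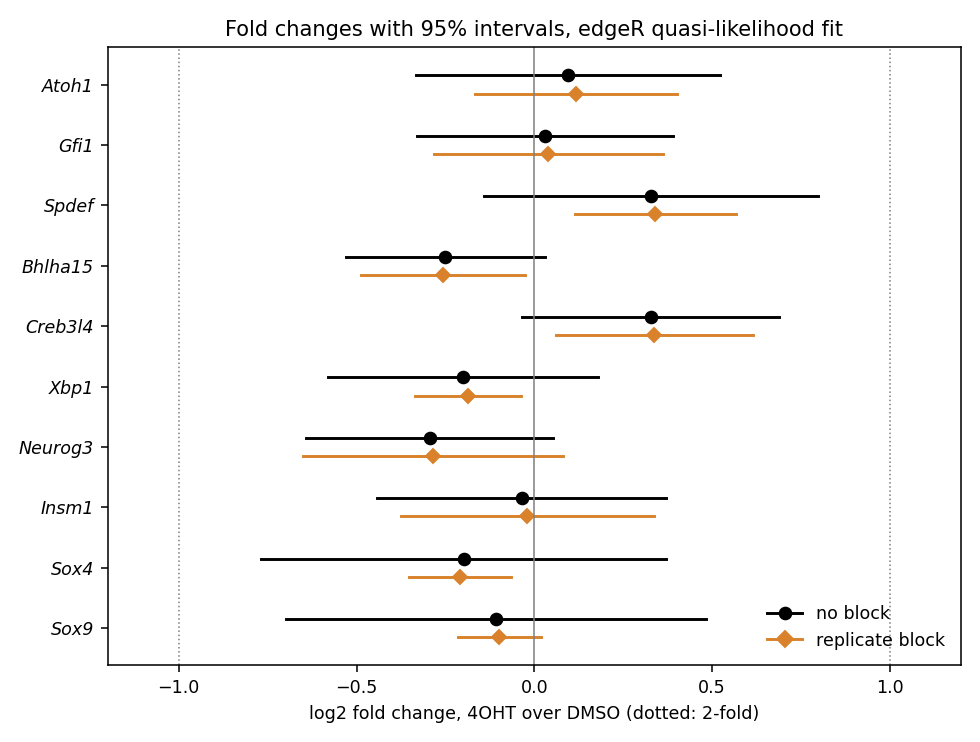
Log2 fold change (4OHT over DMSO) of each factor with its 95% interval, from edgeR without (black circles) and with (orange diamonds) the replicate number as a block; dotted lines mark a 2-fold change. All intervals without the block include 0, and those with it leave 0 out for Spdef, Creb3l4, Bhlha15, Xbp1 and Sox4.

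Commitment to the secretory lineage was represented by Atoh1 and Gfi1. Atoh1 encodes the basic helix-loop-helix (bHLH) factor required for all secretory cells of the mouse intestine. It is a gene of a single exon on the plus strand of chromosome 6, from 64729125 to 64731245 (GRCm38). Its level was 14.5, 14.4 and 16.3 CPM after 4OHT, against 11.6, 12.4 and 18.5 CPM in DMSO. The 4OHT values lay inside the DMSO range, with replicates 1 and 2 higher and replicate 3 lower than the DMSO library of the same number. The means were 15.1 ± 1.05 CPM after 4OHT and 14.2 ± 3.77 CPM in DMSO (SD, n = 3 each), and the log2 fold change was 0.09 (SE 0.181, edgeR adjusted p = 0.854). Without DMSO replicate 3 it was 0.33 (edgeR adjusted p = 0.164), and without DMSO replicate 1 it was -0.03 (0.955).

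Gfi1, a zinc finger repressor that acts downstream of Atoh1 and holds back the endocrine fate, had the lowest level of the 10. It lies on the minus strand of chromosome 5, from 107716657 to 107726036. Its 161 to 225 counts per library gave 5.15, 5.39 and 5.66 CPM after 4OHT, against 5.31, 4.38 and 6.21 CPM in DMSO. The 4OHT libraries again lay inside the DMSO range. Their coefficient of variation was 4.73%, below the 7.09% that counting error alone gives at this depth, while the DMSO libraries varied by 17.2%, above their counting error of 7.43%. The log2 fold change was 0.03 (SE 0.152, edgeR adjusted p = 0.949). A430072P03Rik, a gene of the opposite strand, shares 101 exon bases with Gfi1. The strand setting of the authors' counting is not given in the sources used here, so reads of the shared bases cannot be assigned.

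Among the factors of granule-filled cells, Spdef and Creb3l4 had the highest fold changes of the 10, and both were higher after 4OHT in all 3 same-number pairs. That pattern was seen in 2 of 10 factors, beside 25.3% of all tested genes. Spdef is an ETS factor that drives the maturation of goblet and Paneth cells, on the minus strand of chromosome 17 from 27714352 to 27728955. It was at 25.9, 22.5 and 31.3 CPM after 4OHT, against 17.2, 18.9 and 27.5 CPM in DMSO. DMSO replicate 3 exceeded 4OHT replicates 1 and 2, so the groups overlapped. The means were 26.6 ± 4.45 CPM after 4OHT and 21.2 ± 5.50 CPM in DMSO (SD, n = 3 each), with a log2 fold change of 0.33 (95% interval -0.14 to 0.80, edgeR adjusted p = 0.496).

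Creb3l4, a membrane-anchored factor of the CREB/ATF family, lies on the minus strand of chromosome 3 from 90237500 to 90243512. Its level was 10.8, 10.03 and 11.5 CPM after 4OHT, against 7.31, 7.97 and 10.6 CPM in DMSO. The groups overlapped, since DMSO replicate 3 was above 4OHT replicate 2. The log2 fold change was 0.33 (95% interval -0.04 to 0.69, edgeR adjusted p = 0.38). Without DMSO replicate 3 it was 0.49 for Creb3l4 (edgeR adjusted p = 0.0822) and 0.55 for Spdef (0.116). These were the highest values with 1 library left out. The lowest were 0.22 for Creb3l4 and 0.19 for Spdef, and the edgeR adjusted p reached 0.655 for Creb3l4 and 0.751 for Spdef.

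Bhlha15 was the one factor of the 10 whose groups did not overlap, beside 22.6% of all tested genes in either direction and 10.1% with 4OHT lower. It encodes Mist1, a bHLH factor that builds the secretory apparatus of exocrine cells, on the plus strand of chromosome 5 from 144190286 to 144194441. It was at 23.0, 20.9 and 17.2 CPM after 4OHT, against 23.3, 26.2 and 23.2 CPM in DMSO. The highest 4OHT library, at 23.02 CPM, lay just below the lowest DMSO library, at 23.23 CPM. The means were 20.4 ± 2.94 CPM after 4OHT and 24.2 ± 1.73 CPM in DMSO (SD, n = 3 each), and the log2 fold change was -0.25 (95% interval -0.53 to 0.03, edgeR adjusted p = 0.384).

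Xbp1 encodes a leucine zipper factor of the unfolded protein response that goblet and Paneth cells need for their secretory load. It lies on the plus strand of chromosome 11 from 5520659 to 5525893. The level was 141, 136 and 171 CPM after 4OHT, against 149, 151 and 216 CPM in DMSO. Each 4OHT library was below the DMSO library of the same number, but 4OHT replicate 3 was above DMSO replicates 1 and 2. The log2 fold change was -0.20 (SE 0.161, edgeR adjusted p = 0.616), and it was -0.01 without DMSO replicate 3 (0.973). Xbp1 protein becomes an active factor when the enzyme IRE1 cuts a short intron out of the cytoplasmic transcript, so the stretch is printed to show what a count per gene does not resolve. It is bases 815 to 840 of the 2129 in the longest GENCODE transcript, within the coding sequence, and is printed 5′ to 3′ with the whole removed stretch in capitals.
Xbp1 intron: CAGCACTCAGACTATGTGCACCTCTG
Its 26 bases leave a remainder of 2 on division by the codon length, so their removal shifts the reading frame. The counts per gene add spliced and unspliced forms together, and splicing was not measured here.

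The endocrine branch was represented by Neurog3, Insm1 and Sox4. Neurog3 encodes the bHLH factor that starts enteroendocrine differentiation and is on only briefly in endocrine progenitors. It lies on the plus strand of chromosome 10 from 62133090 to 62134763. It was at 8.39, 8.37 and 7.35 CPM after 4OHT, against 9.42, 8.38 and 11.8 CPM in DMSO. The 4OHT library was the lower of each same-number pair, although replicates 2 were nearly equal (8.37 CPM after 4OHT and 8.38 CPM in DMSO), and 4OHT replicate 1 lay just above DMSO replicate 2. The means were 8.04 ± 0.595 CPM after 4OHT and 9.87 ± 1.75 CPM in DMSO (SD, n = 3 each), and the log2 fold change was -0.29 (95% interval -0.64 to 0.05, edgeR adjusted p = 0.41). Without DMSO replicate 3 it was -0.15 (edgeR adjusted p = 0.583). Fam241b, which runs through Neurog3 on the opposite strand and shares 273 exon bases with it, was at 12.4 ± 0.616 CPM after 4OHT and 13.9 ± 1.59 CPM in DMSO under its older symbol 2010107G23Rik, so reads of the shared bases could lie in either count.

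Insm1, a zinc finger factor downstream of Neurog3, is a gene of a single exon on the plus strand of chromosome 2 from 146221921 to 146225020. Its level was 9.82, 8.74 and 9.89 CPM after 4OHT, against 7.56, 9.63 and 12.02 CPM in DMSO. The pairs went both ways, and the 4OHT libraries lay inside the DMSO range. The log2 fold change was -0.04 (SE 0.172, edgeR adjusted p = 0.948), and 0.14 without DMSO replicate 3 (0.686).

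Sox4, an HMG-box factor active in crypt progenitors that promotes endocrine and tuft cell fates in mouse, lies in a single exon on the minus strand of chromosome 13 from 28948919 to 28953713. It was at 257, 232 and 148 CPM after 4OHT, against 269.6, 282 and 179 CPM in DMSO. Each 4OHT library was below its same-number DMSO library, yet replicate 3 of both groups was far below the other libraries. The log2 fold change was -0.20 (SE 0.241, edgeR adjusted p = 0.753). The coefficient of variation was 26.9% after 4OHT and 23.2% in DMSO, beside a counting error of 1.14% after 4OHT and 1.08% in DMSO. The long non-coding RNA Gm26735 shares 2616 exon bases with Sox4 on the opposite strand and was at 2.38 ± 0.632 CPM after 4OHT and 2.63 ± 1.09 CPM in DMSO (SD, n = 3 each). Sox4 has 4795 exon bases in all, and reads of the shared bases could lie in either count.

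Sox9, the crypt base factor, lies on the plus strand of chromosome 11 from 112782224 to 112787760. Its level was 145, 121 and 86.6 CPM after 4OHT, against 156, 137 and 87.6 CPM in DMSO. The pattern was that of Sox4: a small deficit in every same-number pair within a much wider spread between numbers. The means were 118 ± 29.4 CPM after 4OHT and 127 ± 35.4 CPM in DMSO (SD, n = 3 each), with a log2 fold change of -0.11 (SE 0.25, edgeR adjusted p = 0.882). Bhlha15, Xbp1, Neurog3, Sox4 and Sox9 were thus lower in all 3 pairs, 5 of 10 factors beside 24.5% of all tested genes. With Spdef and Creb3l4, 7 of 10 factors went the same way in all pairs, beside 49.8% of all tested genes. These counts include pairs that were nearly equal. The log2 difference was -0.015 for Bhlha15 in replicates 1, -0.0017 for Neurog3 in replicates 2 and -0.015 for Sox9 in replicates 3. In bulk RNA of this kind, fewer cells that express a factor and less transcript per cell cannot be told apart.

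The promoters of the 4 factors with the largest fold changes without regard to sign, of which 2 were higher and 2 lower after 4OHT, are shown to compare their letters. RefSeq (GRCm38.p6) gave promoter sequence for 8 of the 10 factors, with 11 starts in all; it gave none for Insm1 and Sox9. Each line holds the 250 bases before the start, 5′ to 3′ on the gene's strand, and for Creb3l4 the most upstream of 3 starts. Capitals mark E-boxes, CANNTG, the motif that bHLH factors such as Atoh1, Bhlha15 and Neurog3 bind, searched on both strands.
Spdef (chr17:27728952-27729201, minus strand): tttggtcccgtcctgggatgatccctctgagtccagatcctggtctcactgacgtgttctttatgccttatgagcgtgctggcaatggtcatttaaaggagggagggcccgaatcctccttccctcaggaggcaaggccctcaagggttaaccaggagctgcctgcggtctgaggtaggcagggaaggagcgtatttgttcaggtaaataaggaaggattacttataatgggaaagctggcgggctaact
Creb3l4 (chr3:90243513-90243762, minus strand): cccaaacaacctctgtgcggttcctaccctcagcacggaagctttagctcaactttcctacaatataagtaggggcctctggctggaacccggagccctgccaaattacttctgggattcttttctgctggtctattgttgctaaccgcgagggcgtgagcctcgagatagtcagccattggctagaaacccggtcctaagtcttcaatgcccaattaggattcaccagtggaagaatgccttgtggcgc
Bhlha15 (chr5:144190036-144190285, plus strand): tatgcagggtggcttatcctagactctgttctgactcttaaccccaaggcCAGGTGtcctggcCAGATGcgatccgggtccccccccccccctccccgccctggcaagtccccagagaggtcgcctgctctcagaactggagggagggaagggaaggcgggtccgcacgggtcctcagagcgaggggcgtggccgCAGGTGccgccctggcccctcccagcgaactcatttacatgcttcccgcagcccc
Neurog3 (chr10:62132840-62133089, plus strand): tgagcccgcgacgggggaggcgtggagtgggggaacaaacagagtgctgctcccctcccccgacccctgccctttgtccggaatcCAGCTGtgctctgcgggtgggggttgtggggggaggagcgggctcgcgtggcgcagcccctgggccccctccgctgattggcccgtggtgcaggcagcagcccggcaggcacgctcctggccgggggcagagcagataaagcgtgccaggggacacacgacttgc
The Bhlha15 promoter held 3 E-boxes and that of Neurog3 held 1, while that of Spdef held none. Creb3l4 had none at the start shown or at the most downstream start, and 3 at the start between them, as many as Bhlha15. Of the 11 starts, 7 had at least 1 E-box, beside 66.2% of 32851 promoters of the same length. The form CAGCTG, which is a kind of E-box and stands in the Neurog3 promoter at -165 from the start, was in 2 of 11 (13% of all promoters). The HNF4-type letters CAAAGTCCA were in 0 of 11 (0.384%), and the nuclear receptor half-site AGGTCA was in 1 of 11, that of Sox4 (14% of all promoters). A match is a run of letters in these windows and not a measured site.

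For most of the factors, replicate 3 differed from replicates 1 and 2 in the same direction in both groups. For each group, the log2 CPM of replicate 3 was set against the mean of replicates 1 and 2. The shift went the same way in both groups for 9 of 10 factors, beside 67.4% of all tested genes, with 6 higher and 3 lower in replicate 3. Its size was above that of the log2 fold change of 4OHT over DMSO for 8 factors within 4OHT and for 9 within DMSO. The share of all tested genes with a shift above their fold change was not computed. A difference between 1 library and a mean of 2 also varies more than one between means of 3. The counts of 8 and 9 are thus not shown to be particular to the factors. The shift of Sox4 was -0.72 after 4OHT and -0.63 in DMSO, and that of Sox9 was -0.61 after 4OHT and -0.74 in DMSO. A same-way shift of over 0.5 in both groups was seen in 5.29% of all tested genes, and among the factors in Sox4 and Sox9. Spdef was higher in replicate 3 by 0.38 after 4OHT and 0.61 in DMSO, and Xbp1 by 0.30 after 4OHT and 0.52 in DMSO. Neurog3 was the exception, with -0.19 after 4OHT and 0.41 in DMSO.

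Markers of cell types moved with replicate 3 as well. The median shift was 0.55 after 4OHT and 0.85 in DMSO for 15 goblet cell markers, and 0.41 after 4OHT and 0.76 in DMSO for 15 enterocyte markers. It was -0.53 after 4OHT and -0.45 in DMSO for 12 stem cell markers, 0.23 after 4OHT and 0.39 in DMSO for 17 tested enteroendocrine markers, and near 0 for 13 tested Paneth cell markers. Over all tested genes it was -0.0012 after 4OHT and 0.00046 in DMSO. The part of cell composition in the values of the factors was not tested.

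With replicate 3 left out of both groups, edgeR without a block called 0 of 10 factors, beside 4.10% of all tested genes. With the block as well it called 5 of 10, beside 18.3% of all tested genes (3 higher, beside 10.1%, and 2 lower, beside 8.16%), from 4 libraries with 1 residual degree of freedom per gene. In that fit Spdef was higher after 4OHT (log2 fold change 0.41, edgeR adjusted p = 0.00122), as were Creb3l4 (0.44, 0.00714) and Atoh1 (0.27, 0.0491). Sox4 (-0.18, 0.0145) and Sox9 (-0.15, 0.0242) were lower. These 5 calls were not made in any fit that kept all 6 libraries.

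**Figure D3:**
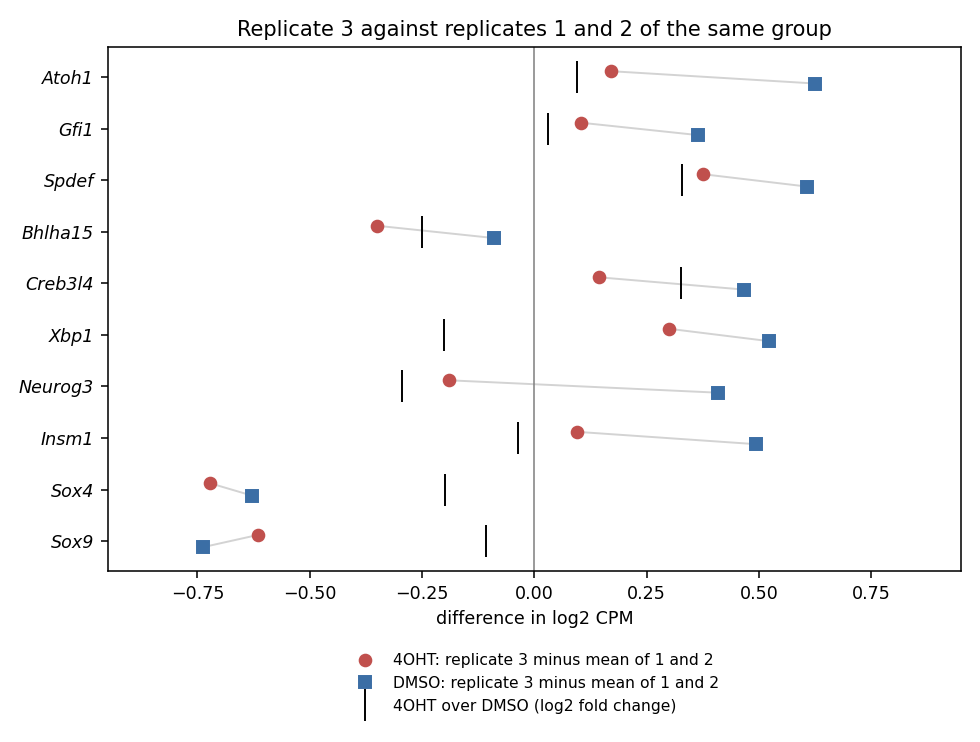
Difference in log2 CPM between replicate 3 and the mean of replicates 1 and 2, after 4OHT (red circles) and in DMSO (blue squares), for each factor, with a black tick for the log2 fold change of 4OHT over DMSO. Both symbols lie on the same side of 0 for every factor but Neurog3, and the ticks lie within 0.33 of 0.

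Per kilobase of the longest transcript, the factors spanned a wide range, and the broad order was shared by both groups. Xbp1 was highest at 70.2 ± 8.78 CPM per kilobase after 4OHT and 80.7 ± 17.8 in DMSO (SD, n = 3 each). Sox4 followed at 44.3 ± 11.9 CPM per kilobase after 4OHT and 50.8 ± 11.8 in DMSO, then Sox9 at 28.5 ± 7.10 after 4OHT and 30.7 ± 8.55 in DMSO, and the ranges of Sox4 and Sox9 overlapped in both groups. Spdef stood below them at 13.8 ± 2.31 CPM per kilobase after 4OHT and 11.04 ± 2.87 in DMSO. Next came 4 factors between 5.22 and 7.11 CPM per kilobase after 4OHT and between 5.55 and 6.94 in DMSO. Their order was Atoh1, Creb3l4, Bhlha15, Neurog3 after 4OHT and Bhlha15, Atoh1, Neurog3, Creb3l4 in DMSO, and each neighbour in it overlapped the next. Insm1 was at 3.06 ± 0.209 CPM per kilobase after 4OHT and 3.14 ± 0.720 in DMSO, and Gfi1 was lowest at 1.89 ± 0.0893 after 4OHT and 1.85 ± 0.319 in DMSO. With the union of exons as the length, each group kept its order, but Xbp1 came to 46.0 CPM per kilobase after 4OHT and 52.9 in DMSO and overlapped Sox4. In DMSO, Spdef then overlapped Bhlha15 as well, with its lowest library at 7.48 CPM per kilobase and the highest of Bhlha15 at 7.51. The lengths of Sox4, Neurog3 and Gfi1 include bases shared with genes of the opposite strand, 2616 of 4795 for Sox4. Reads of those bases cannot be assigned.

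**Figure D4:**
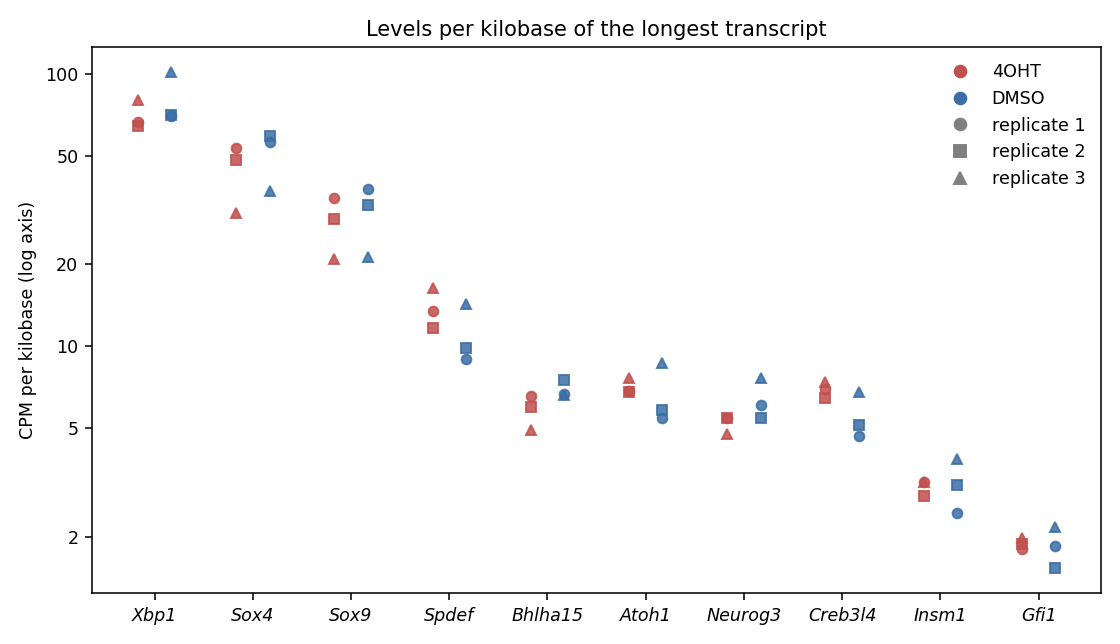
CPM per kilobase of the longest transcript (log axis) for the 10 factors in every library, with 4OHT in red left of DMSO in blue and replicates 1, 2 and 3 as circle, square and triangle. Xbp1, Sox4 and Sox9 lie above 20, Spdef lies between them and the rest, and Gfi1 is lowest.

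The genes whose levels ran most like those of 4 factors over the 6 libraries were picked by Pearson's r of log2 CPM among 9373 or 9374 other genes whose mean reached 10 CPM. These values describe 6 libraries that share groups and replicate numbers. Picked as the highest among so many genes, they are high by selection, and shared regulation was not tested. Atoh1 was followed most closely by Klk1 (r = 0.996), which is also on the goblet list, Fsd1l (0.992) and Styk1 (0.988). For Spdef they were Chic1 (0.993), Plce1 (0.991) and Rnf103 (0.987), and for Neurog3 Abtb1 (0.983), Ubxn6 (0.979) and Atp5sl (0.976). Sox9 was followed by Zfp553 (0.999), Nom1 (0.995) and Dnmt3a (0.995).

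Gene lists around the factors were read against the share of all tested genes called in each direction. By edgeR 0.701% were called higher and 0.206% lower after 4OHT, and at p under 0.05 without adjustment the shares were 8.65% higher and 6.35% lower. With the replicate block 3.99% were called higher and 3.00% lower, and with DESeq2 3.62% higher and 1.94% lower.

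Among other transcription factors of the secretory branches, few were called. Of 23 tested, edgeR and limma-voom called 0 and DESeq2 called 2 higher after 4OHT, and at an unadjusted edgeR p under 0.05 there were 2 higher and 1 lower. Their median log2 fold change was -0.07. With the replicate block 2 rose and 1 fell. Foxa1, a forkhead factor of goblet and endocrine cells, was at 124 ± 8.47 CPM after 4OHT and 84.7 ± 12.7 CPM in DMSO (log2 fold change 0.55, edgeR adjusted p = 0.0841, with the block 0.0143). Creb3l1, a relative of Creb3l4, was at 87.9 ± 3.76 CPM after 4OHT and 59.0 ± 13.9 CPM in DMSO (0.58, edgeR adjusted p = 0.145, with the block 0.03). Hes6, a factor of the Hes family, was at 66.9 ± 7.05 CPM after 4OHT and 82.2 ± 6.60 CPM in DMSO (-0.30, edgeR adjusted p = 0.217, with the block 0.0234). Klf4, which goblet cells need in the mouse colon, was not called in either fit (0.28, edgeR adjusted p = 0.343, with the block 0.0577).

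In the list for the Notch pathway, which holds the secretory fate back, 1 of 17 tested genes rose and 0 fell, with a median log2 fold change of -0.07. The list also holds stem cell genes, such as Olfm4, that are counted again among the stem cell markers. At an unadjusted edgeR p under 0.05, 1 was higher and 2 were lower. Notch3, a Notch receptor, rose to 15.7 ± 1.8 CPM after 4OHT, against 6.89 ± 1.19 CPM in DMSO (log2 fold change 1.18, SE 0.153, edgeR adjusted p = 0.0284). With the replicate block Notch2, another receptor, was also called higher (0.35, edgeR adjusted p = 0.0445). The ligand gene Dll4 was at 13.5 ± 0.648 CPM after 4OHT and 16.5 ± 0.530 CPM in DMSO (-0.29, edgeR adjusted p = 0.15), and Olfm4, a stem cell gene that responds to Notch, was at 786 ± 187 CPM after 4OHT and 1103 ± 140.3 CPM in DMSO (-0.49, 0.264). Of 10 genes for Atoh1's partners and turnover, edgeR and limma-voom called 0, with 1 at an unadjusted edgeR p under 0.05 and a median of -0.03. That gene was the corepressor Cbfa2t3 (log2 fold change 0.49, edgeR adjusted p = 0.0675), which was called higher with the block (0.0159) and by DESeq2 (0.00126).

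Genes known as targets of Xbp1 or working in the endoplasmic reticulum had a median log2 fold change of -0.0025. Of 20 tested, edgeR, DESeq2 and limma-voom each called 0, with 1 at an unadjusted edgeR p under 0.05. It was Ern2, the gut form of IRE1, at 48.3 ± 8.01 CPM after 4OHT and 32.5 ± 9.20 CPM in DMSO (0.57, edgeR adjusted p = 0.261), and the block gave 0.0236. Hspa5, the chaperone BiP, was at 875.5 ± 73.8 CPM after 4OHT and 807 ± 64.3 CPM in DMSO (0.12, edgeR adjusted p = 0.606). Of 11 tested genes tied to Bhlha15 and exocytosis, edgeR and limma-voom called 0, DESeq2 called 1 higher, and 2 were higher at an unadjusted edgeR p under 0.05, with a median of 0.18. Nucb2, a calcium-binding protein of the secretory route, was at 14.3 ± 0.731 CPM after 4OHT and 10.7 ± 0.517 CPM in DMSO (0.41, edgeR adjusted p = 0.0857, with the block 0.0365). The Golgi calcium pump gene Atp2c2 had a log2 fold change of 0.30 (edgeR adjusted p = 0.226, with the block 0.0578).

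Markers of the mature cells were set beside the factors. For goblet cells the median log2 fold change of 15 markers was 0.35. There edgeR and limma-voom called 0 of 15, 5 were higher and 1 lower at an unadjusted edgeR p under 0.05, DESeq2 called 3 higher and 1 lower, and the block called 8 higher and 1 lower. The mucus layer gene Zg16 was at 401 ± 179 CPM after 4OHT and 128 ± 59.4 CPM in DMSO (1.65, edgeR adjusted p = 0.126, with the block 0.00192), and Clca1, a secreted mucus protein gene, at 535 ± 220 CPM after 4OHT and 211 ± 66.3 CPM in DMSO (1.34, 0.118, with the block 0.00581).

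Among 13 tested Paneth markers, whose median was -0.07, 1 rose and 1 fell. Nupr1, a stress-responsive chromatin protein gene, rose to 29.6 ± 3.96 CPM after 4OHT, against 12.7 ± 0.541 CPM in DMSO (log2 fold change 1.22, edgeR adjusted p = 0.00944), and Lyz1, the Paneth lysozyme, fell to 248 ± 19.1 CPM after 4OHT, against 424 ± 52.1 CPM in DMSO (-0.78, 0.0318). With the block 1 rose and 4 fell, DESeq2 called 1 higher and 1 lower, and at an unadjusted edgeR p under 0.05 there were 1 higher and 3 lower. Of 17 tested enteroendocrine markers, whose median was 0.28, edgeR, DESeq2 and limma-voom called 0 and 2 were higher at an unadjusted edgeR p under 0.05, the hormone genes Pyy (0.59, edgeR adjusted p = 0.281) and Gcg (0.49, 0.281). The block called Chga, a granule protein gene, higher (0.40, edgeR adjusted p = 0.0478). Some enteroendocrine markers went the other way, with log2 fold changes down to -0.15. None of those was lower at an unadjusted edgeR p under 0.05. Of 8 tested tuft markers, whose median was 0.22, edgeR and limma-voom called 0, 2 were higher at an unadjusted edgeR p under 0.05, and the block and DESeq2 each called Avil, an actin-binding protein gene, higher (0.76, edgeR adjusted p = 0.0435 with the block).

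Outside the secretory lineage, 15 enterocyte markers had a median log2 fold change of -0.54. At an unadjusted edgeR p under 0.05, 6 of them were lower, and adjusted calls were 0 by edgeR or limma-voom, 4 lower by DESeq2 and 5 lower with the block. The peptide transporter gene Slc15a1 was at 13.3 ± 3.00 CPM after 4OHT and 21.5 ± 2.08 CPM in DMSO (-0.69, edgeR adjusted p = 0.12, with the block 0.0184). Of 12 stem cell markers, with a median of -0.32, 0 rose and 1 fell. At an unadjusted edgeR p under 0.05, 1 was higher and 4 were lower, DESeq2 called 1 higher and 1 lower, and the block called 1 higher and 3 lower. The one that fell was Msi1, an RNA-binding protein gene, at 19.5 ± 4.25 CPM after 4OHT and 46.7 ± 9.10 CPM in DMSO (-1.26, edgeR adjusted p = 0.0455). Prom1, a surface glycoprotein gene, had the other direction, at 352 ± 7.87 CPM after 4OHT and 290.1 ± 14.3 CPM in DMSO (0.28, edgeR adjusted p = 0.0954, with the block 0.0365). The calls of Notch3, Lyz1 and Msi1 were kept without DMSO replicate 3 (edgeR adjusted p = 0.0164, 0.0243 and 0.0136) and lost without any other library (0.0572 to 0.164). The call of Nupr1 was lost without DMSO replicate 1 (0.0576), DMSO replicate 2 (0.0606) or 4OHT replicate 3 (0.0621). With all 6 libraries DESeq2 called Notch3 (adjusted p = 2.2e-09), Lyz1 (1.2e-08), Msi1 (1.7e-07) and Nupr1 (5.6e-17). The block called Notch3 (edgeR adjusted p = 0.00863), Lyz1 (0.00581), Msi1 (0.00192) and Nupr1 (0.00581).

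Genes of cells other than epithelium were low. Summed levels were 5.87 to 8.41 CPM after 4OHT and 5.17 to 9.42 CPM in DMSO for the 4 of 8 mesenchymal markers in the table, with Pdgfra between 0 and 0.0859 CPM after 4OHT and between 0.0278 and 0.0817 CPM in DMSO. They were 4.92 to 6.21 CPM after 4OHT and 4.33 to 5.2 CPM in DMSO for 3 of 6 immune markers, with Ptprc at most 0.126 CPM after 4OHT and 0.0817 CPM in DMSO. For 2 of 4 endothelial markers they were 2.17 to 2.56 CPM after 4OHT and 1.33 to 2.10 CPM in DMSO.

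**Figure D5:**
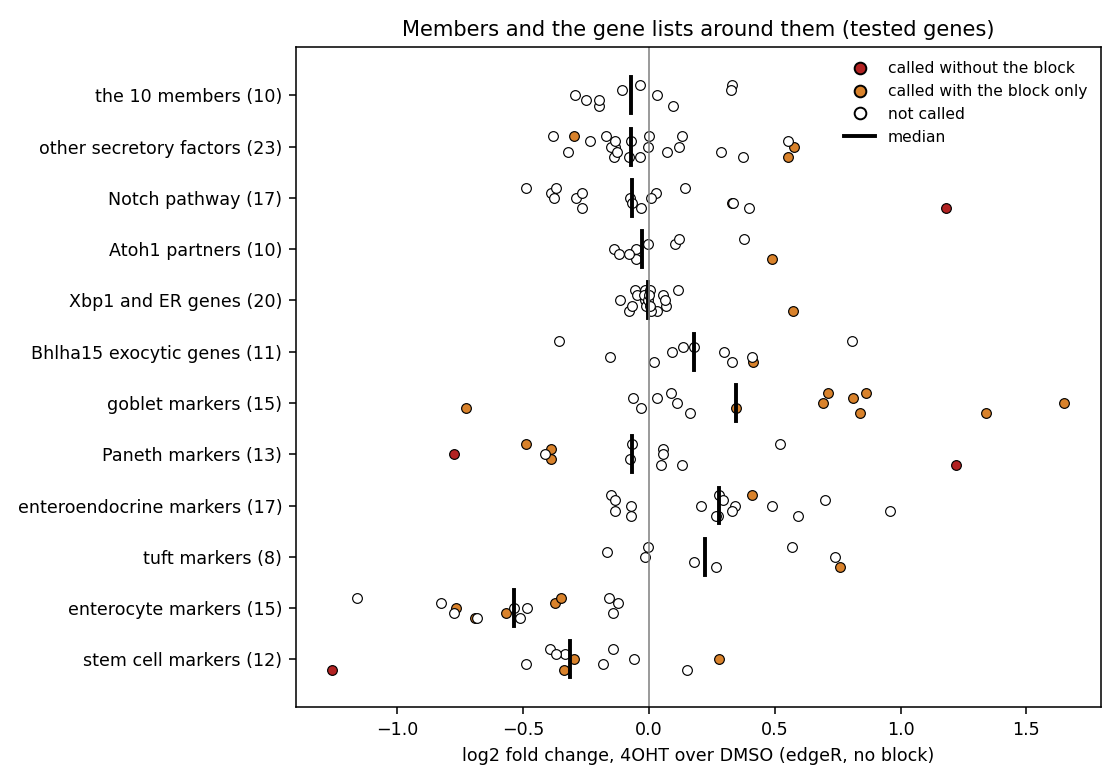
Log2 fold change (4OHT over DMSO, edgeR without a block) of the tested genes of each list, with the 10 factors at the top, a bar for each median and the number tested in brackets; red marks genes called without the block, orange those called with the block only. None of the 10 factors is called in either fit, and the medians of the lists plotted run from -0.54 for enterocyte markers to 0.35 for goblet markers.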

How the data were processed

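Poly(A) RNA of 6 libraries, 3 from 4OHT-treated and 3 from DMSO-treated organoids, was sequenced from 250 ng of RNA with strand-marking chemistry, per the labels' protocols. The submitters' processing notes name STAR 2.4.0f1, bcl2fastq 1.8.4 and GRCm38, and the counting program and its strand setting are not given in the sources used here. The authors deposited raw counts per gene, a normalised score per gene rounded to whole numbers, a log2 fold change and a log2 mean level, and p-values of DESeq and edgeR before and after adjustment, per the file headers. Every deposited gene had at least 10 counts over the 6 libraries. All tests used the raw counts, and the deposited adjusted p-values were only set beside them.

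The analysis used edgeR 4.0.16 in R 4.3.3 (filterByExpr, TMM scaling, quasi-likelihood F test, group as the only term, two-sided p, Benjamini-Hochberg adjustment over 14544 genes). Calls were made at an adjusted p under 0.05. "Rose", "fell" and "called" refer to this rule. CPM are TMM-scaled counts, and intervals are 95%. A library had 30.8 to 39.7 counts per CPM, and counting error was taken as the square root of the count, so relative counting error is largest for Gfi1. Counting error leaves out the spread between libraries. The SE of the log2 fold change of Gfi1 (0.152) was below those of Sox4 (0.241) and Sox9 (0.25) and above those of Bhlha15 (0.119) and Neurog3 (0.147). Alternatives were DESeq2 1.42.0, limma-voom (limma 3.58.1), other scalings and filters, leaving out libraries, and the replicate number as a block. Over genes, a library's deviations from its group mean correlated with those of the same-number library of the other group at 0.30, 0.33 and 0.43, and with those of other numbers at -0.37 to 0.07. On that basis, seen in these data and not stated in the labels, same-number libraries were taken as pairs in the fit with the block, while the main test stayed unpaired. Within a group the deviations cancel out for each gene. Positive same-number correlations therefore push those of other numbers down, and the contrast between them is partly arithmetic. Separate organoid lines, cultures or animals are not stated for the replicates, so the p-values rest on a spread between libraries that may be technical.

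Of the gene IDs, 18351 of 18448 were found in GENCODE M21, which gave loci and lengths on GRCm38. Besides the 10 factors and Hnf4a, up to 4 genes per list with the smallest p, every called gene of a list, and the 3 genes most like Atoh1, Spdef, Neurog3 and Sox9 could be named. Epcam, Pdgfra, Ptprc and the genes that overlap a factor were added. The factors and lists were chosen with earlier results of these data known.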

Additional observations from a re-analysis of the deposited data

How the results depend on the processing

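None of the 10 factors was called without the replicate block under the other scalings, filters and tools, with 1 library left out or with replicates 1 and 2 alone, nor with the block in the fit of all 6 libraries. The block was not combined with another scaling, filter or tool, or with 1 library left out. Under the filter of at least 10 CPM, Gfi1, Creb3l4, Neurog3 and Insm1 were not tested. The fit of replicates 1 and 2 with the block called 5 of the factors. Of 146 alternative values of the factors, 131 kept their direction and their side of the threshold, 5 passed the threshold and 10 changed sign. With 1 library left out, log2 fold changes ran from -0.032 to 0.33 for Atoh1, -0.091 to 0.15 for Gfi1, -0.19 to 0.14 for Insm1, -0.39 to 0.0040 for Sox4 and -0.32 to 0.070 for Sox9. Likewise they ran from -0.049 to 0.64 for Klk1, -0.013 to 0.31 for Fsd1l, -0.16 to 0.042 for Zfp553, -0.12 to 0.037 for Nom1 and -0.051 to 0.017 for Dnmt3a. With replicates 1 and 2 alone, Insm1 was at 0.10, and at 0.11 with the block. Over all genes 132 were called, 102 higher and 30 lower. The count was 49 among genes of at least 10 CPM, 1017 with the replicate block, 762 with DESeq2, 601 with replicates 1 and 2 and 2678 with those and the block, and 4 to 340 with 1 library left out. In the lists around the factors 4 of 170 tested genes were called, beside 0.908% of all tested genes. The count was 34 of 170 with the replicate block (6.99% of all genes) and 19 of 170 with DESeq2 (5.56%). It was 26 of 171 with replicates 1 and 2 (4.10%), 68 of 171 with those and the block (18.3%), and 0 to 15 with 1 library left out. The lists were chosen with earlier results of these data known. For the other named genes, 572 of 669 alternative values kept direction and side, 63 passed the threshold, 25 lost it and 9 changed sign. Where a fit left out libraries, it had fewer of them, and for the other changes the cause was not tested. With 1 library fewer, a group has 2 libraries, and edgeR estimates the spread with the other group's.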
